A study of Mus musculus with 12 samples.

Results

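The neutrophil granule and calprotectin genes described here are 10 genes of mouse brain RNA, S100a8, S100a9, Ngp, Camp, Ltf, Mmp8, Mmp9, Retnlg, Cxcr2 and Il1r2, chosen by name from the 56748 genes of the expression table. All 10 were found. The brains came from adult C57BL/6 mice, an inbred laboratory strain, with 12 animals in 3 arms of 4 (2 females and 2 males in each). Control mice received phosphate-buffered saline (PBS). A second arm received lipopolysaccharide (LPS), the bacterial cell wall component that activates innate immunity through Toll-like receptor 4, into the abdomen at 0.5 mg/kg daily for 7 days. The third arm received the same LPS and, in addition, daily N,N-dimethylacetamide (DMA), an organic solvent also used in drug formulations, at a dose that the labels do not state. Brains were taken on day 7, and each animal gave 1 library. No arm received DMA without LPS.

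Neutrophils are short-lived phagocytes of the blood that mature in the bone marrow and are rare in healthy brain tissue. During maturation they load granules in a fixed order, first azurophil granules with myeloperoxidase and elastase, then secondary granules with lactoferrin and cathelicidin, then tertiary granules with gelatinase. Calprotectin, the heterodimer of S100A8 and S100A9, fills much of their cytosol and is released at sites of inflammation, where it binds Toll-like receptor 4 and RAGE. Systemic LPS is known to mobilise neutrophils and to make them adhere within brain vessels. In RNA from whole tissue, fewer cells of a type and less RNA per cell cannot be told apart, and cells within vessels are counted with those in the tissue.

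Transcription of granule genes is known to depend on factors of the C/EBP family and on PU.1. The stretches of 250 bases upstream of the transcription start of S100a8, S100a9, Ngp and Ltf are shown, because they are the 2 calprotectin genes and the 2 secondary granule genes of the 10 that were both tested and matched. They are RefSeq sequences of GRCm38.p6, read 5′ to 3′ on the strand of the gene. Capitals mark matches, on either strand, to TTNNGNAA (a C/EBP core motif) or GAGGAA (a PU.1 core motif). The 2 motifs did not overlap in these windows. S100a8 lies on the plus strand at chr3:90668821-90669070, S100a9 on the minus strand at chr3:90695722-90695971, Ngp on the plus strand at chr9:110419558-110419807 and Ltf on the plus strand at chr9:111019042-111019291.
S100a8: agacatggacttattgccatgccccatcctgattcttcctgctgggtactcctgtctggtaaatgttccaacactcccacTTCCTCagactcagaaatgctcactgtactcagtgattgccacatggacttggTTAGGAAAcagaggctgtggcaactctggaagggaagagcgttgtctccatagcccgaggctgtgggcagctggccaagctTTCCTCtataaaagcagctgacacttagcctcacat
S100a9: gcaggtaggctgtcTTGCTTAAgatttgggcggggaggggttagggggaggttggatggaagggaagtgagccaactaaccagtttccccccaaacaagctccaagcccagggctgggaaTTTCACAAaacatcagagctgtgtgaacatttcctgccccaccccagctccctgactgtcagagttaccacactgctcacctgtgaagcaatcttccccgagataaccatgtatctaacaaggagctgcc
Ngp: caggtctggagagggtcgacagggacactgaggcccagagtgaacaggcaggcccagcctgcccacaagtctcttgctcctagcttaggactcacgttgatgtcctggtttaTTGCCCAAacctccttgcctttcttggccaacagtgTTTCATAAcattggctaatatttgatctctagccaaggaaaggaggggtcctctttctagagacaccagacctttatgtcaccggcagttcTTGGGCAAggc
Ltf: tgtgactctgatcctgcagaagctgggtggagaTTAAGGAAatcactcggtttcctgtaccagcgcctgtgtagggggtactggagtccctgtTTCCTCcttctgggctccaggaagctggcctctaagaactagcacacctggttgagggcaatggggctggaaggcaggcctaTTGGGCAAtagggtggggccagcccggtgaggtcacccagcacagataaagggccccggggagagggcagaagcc
The C/EBP motif occurred in 6 of the 9 upstream windows examined (Mmp9 was not among them), against 36.8% of 32536 windows of the same length. The PU.1 motif occurred in 4 of 9, against 23.4%. S100a8 held 1 C/EBP and 2 PU.1 matches, S100a9 held 2 C/EBP matches, Ngp held 3, and Ltf held 2 C/EBP matches and 1 PU.1 match. Mmp8, which was below the expression filter and is not shown, held 2 C/EBP matches and 1 PU.1 match. Camp had neither motif in its window. A match is a description of letters and was not tested for binding.

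Expression is given as FPKM (fragments per kilobase of gene, scaled to library size), which is comparable between genes because it is per length. Read numbers recovered from the FPKM steps gave library totals of 27.5 M (megareads) to 41.4 M (median 34.4 M). Reads of the 10 genes together came to 61 to 142 per PBS library, 84 to 1747 per LPS library and 159 to 477 per LPS+DMA library. Most values of these 10 genes below therefore rest on few reads. Recovered read numbers were even for 71.1% of the 97 values above 0 of these genes, and reads that come in pairs are not independent molecules. Where a library held no read of a gene, its upper limit is the FPKM of 3 reads, 0.0226 to 0.157 over the genes and libraries at 0, which covers counting error only.

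Several libraries stood apart before any comparison of the neutrophil genes. LPS female 2 had 0.0389% of its reads in ribosomal RNA genes, against 2.88% to 9.79% in the other 11 libraries. Although the tissue is labelled whole brain, the summed FPKM of 6 forebrain markers was 16.9 to 106 in LPS female 1, LPS male 1 and LPS male 2, and 454 to 1125 in the other 9 libraries. The summed FPKM of 6 cerebellar markers was 70.9 to 448 in those 3 libraries and 299 in PBS female 1, and 10.4 to 27.5 in the other 8. The regional makeup of the tissue and the LPS arm can therefore not be fully told apart.

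Of the 10 genes, S100a8 and S100a9 had the largest differences from PBS. S100A8 and S100A9 are calcium-binding proteins that together form calprotectin, and the genes are neighbours on chromosome 3 of GRCm39 (S100a8 from 90576285 to 90577342 and S100a9 from 90599939 to 90603028). Mean S100a9 was 29.0-fold higher in LPS than in PBS and 16.5-fold higher in LPS+DMA than in PBS, and mean S100a8 was 26.9-fold and 18.7-fold higher. The LPS values rested on single libraries in part, being 14.6-fold for S100a9 and 11.9-fold for S100a8 without LPS male 1, and 49.1-fold and 45.2-fold without PBS female 2. Without PBS female 2 the LPS+DMA values were 28.0-fold and 31.4-fold. In LPS+DMA both genes were above every PBS library. None of these differences passed the test across all genes when all 12 libraries were fitted.

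In the order female 1, female 2, male 1 and male 2, S100a9 was at 0.441, 0.831, 0.102 and 0.119 FPKM in PBS. It was at 6.72, 2.09, 26.9 and 7.59 FPKM in LPS. It was at 2.02, 7.25, 7.48 and 7.95 FPKM in LPS+DMA. Every LPS library and every LPS+DMA library lay above every PBS library, while the ranges of LPS and LPS+DMA overlapped. Means over 4 animals were 0.373 ± 0.343 FPKM (SD) for PBS, 10.8 ± 10.98 for LPS and 6.18 ± 2.79 for LPS+DMA. The LPS spread came from LPS male 1, the highest library, and LPS female 2, the lowest of that arm.

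S100a8 was at 0.199, 0.469, 0 and 0.179 FPKM in PBS, where the library at 0 (male 1) has an upper limit of 0.115. It was at 2.76, 0, 15.2 and 4.82 FPKM in LPS, with an upper limit of 0.139 in LPS female 2. It was at 1.35, 2.99, 4.49 and 6.98 FPKM in LPS+DMA. All 4 LPS+DMA libraries and 3 of 4 LPS libraries lay above every PBS library, and LPS female 2 was the exception. The means were 0.212 ± 0.193, 5.70 ± 6.64 and 3.95 ± 2.39 FPKM (SD, n = 4 each). LPS female 2 held 34 reads of S100a9 and none of S100a8, whereas the S100a8 to S100a9 ratio of FPKM in the other 3 LPS libraries was 0.411 to 0.636 and in LPS+DMA 0.412 to 0.878.

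**Figure D1:**
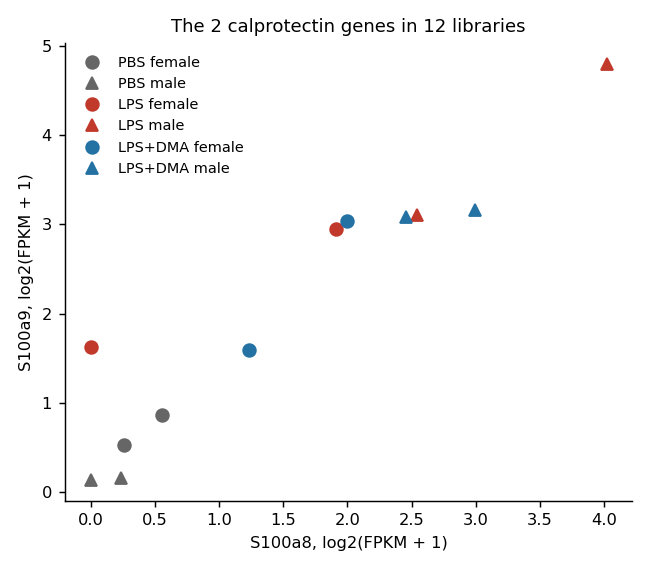
S100a9 against S100a8 in each of 12 libraries, both axes log2(FPKM + 1), coloured by arm, with circles for females and triangles for males. The points lie along 1 rising band from PBS at the lower left to LPS male 1 at the upper right (15.2 and 26.9 FPKM), except LPS female 2, which sits at 0 on the S100a8 axis.

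The test was limma on log2(FPKM + 1) with sex as a covariate, fitted over 19571 genes with Benjamini-Hochberg adjustment, and a gene is called at an adjusted p under 0.05. For LPS against PBS, S100a9 had a log2 change of 2.69 (SE 0.52, limma adjusted p = 0.177) and S100a8 one of 1.85 (SE 0.56, limma adjusted p = 0.311). The 95% intervals, not adjusted for the number of genes, ran from 1.56 to 3.83 for S100a9 and from 0.63 to 3.08 for S100a8. The scale with 1 FPKM added understates changes of genes this low. On the recovered reads (limma-voom), the log2 change of S100a9 was 4.71 (SE 1.04, adjusted p = 0.230) and that of S100a8 was 4.34 (SE 1.80, adjusted p = 0.373). Without LPS female 2 both were called, at 3.13 for S100a9 (limma adjusted p = 0.00726) and 2.45 for S100a8 (limma adjusted p = 0.0134). In that fit 672 of all 19571 genes were called, 187 higher and 485 lower, against 2 with all libraries. Without LPS male 1 they were 2.18 for S100a9 (limma adjusted p = 0.401) and 1.34 for S100a8 (limma adjusted p = 0.642). Without the 4 libraries high in cerebellar markers, which leaves LPS female 2 as the sole LPS library, the log2 change was 1.36 for S100a9 and 0.065 for S100a8, and LPS+DMA against PBS was 2.36 and 1.99.

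For LPS+DMA against LPS, the log2 change was -0.40 for S100a9 (interval -1.54 to 0.74, limma adjusted p = 0.648) and 0.05 for S100a8 (interval -1.17 to 1.28, limma adjusted p = 0.963). These intervals allow a change of either sign. The mean of S100a9 in LPS+DMA was 0.571 of that in LPS, but 1.13 of it without LPS male 1. For S100a8 the same ratio was 0.694, and 1.56 without LPS male 1. The direction of this comparison therefore turned on 1 library. Against PBS, LPS+DMA gave log2 changes of 2.30 for S100a9 (limma adjusted p = 0.316) and 1.91 for S100a8 (limma adjusted p = 0.325). The LPS+DMA ratio to PBS stayed at 13.3 or more for S100a9, and 13.9 or more for S100a8, with any 1 library left out.

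Of the 10 genes, 7 passed the filter of 0.5 FPKM in at least 2 libraries, and Camp, Mmp8 and Cxcr2 did not. For LPS against PBS 0 of these 7 were called, where 0.0102% of all tested genes were. At an unadjusted p under 0.05 there were 4 of 7 in limma and 3 of 7 in voom, against 10.96% of all genes in limma. For LPS+DMA against LPS 0 of 7 were called, where 9.67% of all genes were. None of the 7 had an unadjusted p under 0.05 in limma or voom, where 28.4% of all genes did in limma. For LPS+DMA against PBS 0 of 7 were called, where 0.0102% of all genes were. At an unadjusted p under 0.05 there were 3 of 7 in both limma and voom, against 11.4% of all genes in limma. The median log2 change of the 7 genes was 0.61, -0.13 and 0.44 in these comparisons, against -0.01, 0.01 and 0.00 over all genes. The filter lets a gene pass through the arm in which it is high, so these medians are a description. Without the filter all 10 were fitted and 0 were called in each comparison.

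**Figure D2:**
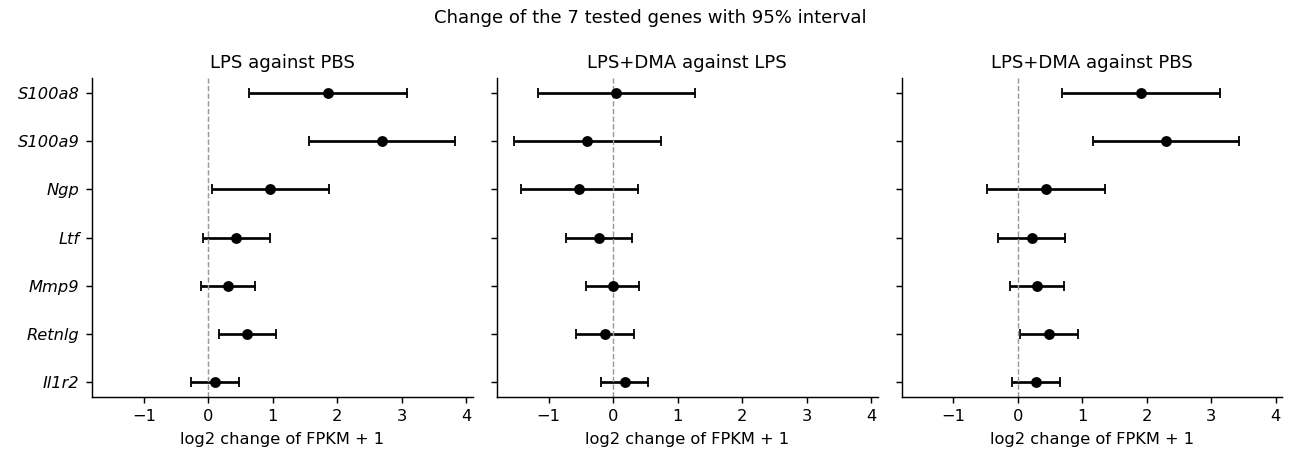
Log2 change of FPKM + 1 for the 7 tested genes in 3 comparisons, with points for the limma estimates and bars for 95% intervals not adjusted for the number of genes. S100a8 and S100a9 lie farthest to the right against PBS in both LPS arms (1.85 to 2.69), and every interval for LPS+DMA against LPS includes 0.

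By ranks, S100a9 and Retnlg were higher in every LPS library than in every PBS library, and 3.59% of all tested genes had that pattern. For Retnlg this order rested on 2 reads in each LPS female against 2 reads in PBS female 1 and in PBS male 1. S100a8, S100a9 and Retnlg were higher in every LPS+DMA library than in every PBS library, which held for 3.71% of genes. The filter lets a gene pass through the arm in which it is high, so these counts are a description. None of the 10 genes separated LPS+DMA from LPS, where 6.26% of genes lay wholly above and 5.98% wholly below. After rescaling to 1 total the genes wholly above numbered 1112 for LPS over PBS (703 before), 204 for LPS+DMA over PBS (727 before) and 281 for LPS+DMA over LPS (1226 before), while the counts among the 10 genes were 2, 3 and 0 on both scales.

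The secondary granule genes Ngp, Camp and Ltf followed a more uneven pattern, with most of their reads in 1 LPS library. Ngp encodes neutrophilic granule protein, a cystatin-like protein of secondary granules. Ngp was at 0.188, 0.133, 0.0436 and 0.102 FPKM in PBS. It was at 1.18, 0, 5.24 and 0.648 FPKM in LPS, with an upper limit of 0.0787 in LPS female 2. It was at 0.0958, 0.893, 0.699 and 0.472 FPKM in LPS+DMA. The arms overlapped, with 3 of 4 libraries in each LPS arm above all PBS libraries. The log2 change was 0.96 for LPS against PBS (SE 0.41, limma adjusted p = 0.429) and -0.53 for LPS+DMA against LPS (limma adjusted p = 0.428). Without LPS male 1, the LPS to PBS ratio of Ngp means fell from 15.1 to 5.23, and the LPS+DMA to LPS ratio went from 0.306 to 0.885.

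Camp encodes the precursor of cathelicidin, an antimicrobial peptide that permeabilises bacterial membranes. Camp was at 0.486, 0, 0 and 0.410 FPKM in PBS. It was at 0.156, 0.0423, 4.12 and 0.404 FPKM in LPS, and at 0.154, 0.0960, 0 and 0.406 FPKM in LPS+DMA. LPS male 1 alone stood high, with 119 reads, and the other 11 libraries held at most 16 reads each. In the fit without a filter the log2 change was 0.51 for LPS against PBS (SE 0.40, limma adjusted p = 0.741).

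Ltf encodes lactoferrin, which binds iron and withholds it from microbes. Ltf was at 0.0400, 0.0786, 0 and 0.0180 FPKM in PBS, and at 0.0855, 0, 1.46 and 0.422 FPKM in LPS. It was at 0.0509, 0.274, 0 and 0.535 FPKM in LPS+DMA. LPS male 1 was highest and LPS female 2 and LPS+DMA male 1 had no read, so the arms overlapped. The log2 change was 0.43 for LPS against PBS (SE 0.24, limma adjusted p = 0.530) and -0.22 for LPS+DMA against LPS (limma adjusted p = 0.569).

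The balance between secondary granule and calprotectin transcripts varied within arms. The summed FPKM of Ngp, Camp and Ltf over that of S100a8 and S100a9 was 0.0203 to 0.257 in LPS and 0.0584 to 0.123 in LPS+DMA. In PBS it was 0.163 to 1.78, at totals of few reads. Thus S100a8 and S100a9 made up most of the signal in both LPS arms, and the 3 secondary granule genes made up most of the summed FPKM in some PBS libraries.

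**Figure D3:**
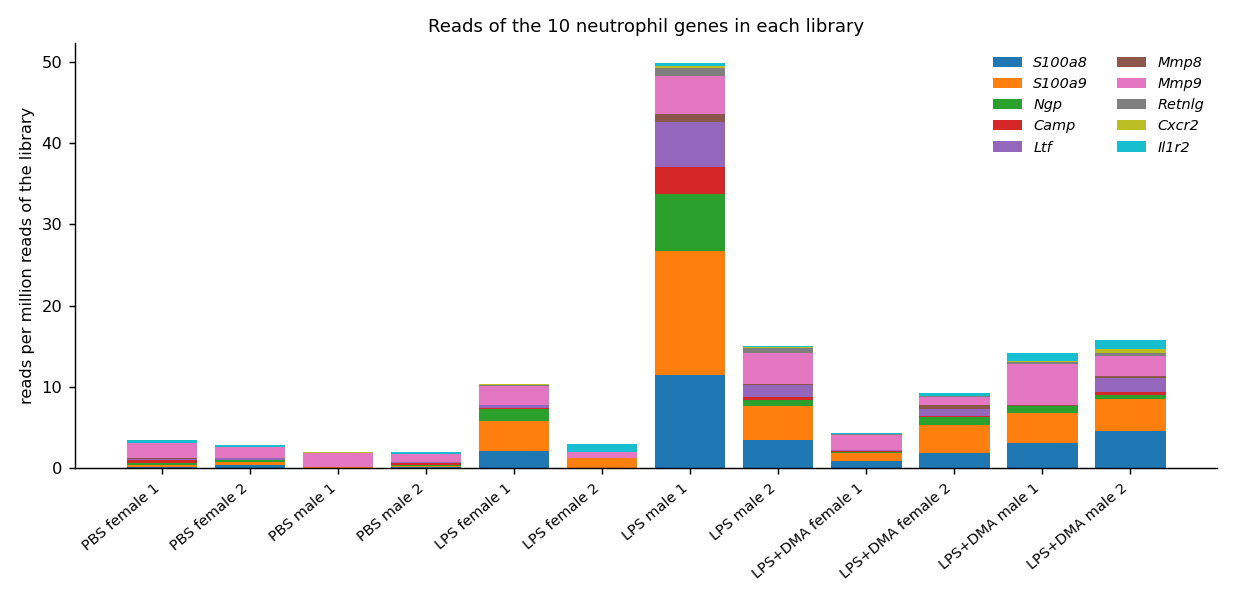
Recovered reads of the 10 genes per M reads of each library, stacked by gene and starting at 0. LPS male 1 reaches 49.9 per M, and the other 11 libraries lie between 1.92 and 15.8.

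The granule proteases behaved differently from one another. Mmp9, gelatinase B, is stored in tertiary granules and degrades basement membrane collagen, and it is also expressed by neurons and vascular cells. Mmp9 was at 0.481, 0.368, 0.459 and 0.272 FPKM in PBS, with a mean of 0.395 ± 0.0955 (SD, n = 4), which was within the spread of S100a9 there. It was at 0.625, 0.181, 1.22 and 1.05 FPKM in LPS and at 0.554, 0.298, 1.47 and 0.717 FPKM in LPS+DMA. The lowest library of each LPS arm (female 2 in both) fell within or below the PBS range. The log2 change was 0.30 for LPS against PBS (SE 0.19, limma adjusted p = 0.585), -0.01 for LPS+DMA against LPS (limma adjusted p = 0.986) and 0.30 for LPS+DMA against PBS (limma adjusted p = 0.556).

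Mmp8, the neutrophil collagenase of secondary granules, was barely detected. It had 3 reads in PBS female 1 and none in the other 3 PBS libraries. In LPS it had 2, 0, 34 and 4 reads, and in LPS+DMA 0, 16, 4 and 8 reads. The highest value was 0.368 FPKM in LPS male 1. In the fit without a filter the log2 change was 0.13 for LPS against PBS and 0.00 for LPS+DMA against LPS (limma adjusted p = 0.741 and 1).

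Retnlg encodes resistin-like gamma, a small secreted protein made by marrow and blood neutrophils. Retnlg was at 0.0776, 0, 0.0898 and 0 FPKM in PBS. It was at 0.0995, 0.108, 1.55 and 1.03 FPKM in LPS, and at 0.296, 0.368, 0.412 and 0.778 FPKM in LPS+DMA. Both LPS arms lay above PBS in all libraries, but the 2 LPS females held 2 reads each, as did the 2 PBS libraries with any read. The log2 change was 0.61 for LPS against PBS (SE 0.20, limma adjusted p = 0.331), -0.13 for LPS+DMA against LPS (interval -0.57 to 0.32, limma adjusted p = 0.718) and 0.48 for LPS+DMA against PBS (limma adjusted p = 0.423).

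The receptors were the lowest of the genes examined or followed another pattern. Cxcr2, the receptor for CXCL1 and CXCL2 that draws neutrophils out of marrow and into tissue, had 0, 0, 2 and 0 reads in PBS, 4, 0, 7 and 3 in LPS, and 0, 0, 2 and 12 in LPS+DMA. Its highest value was 0.151 FPKM, in LPS+DMA male 2. At this depth no difference between arms was detectable for Cxcr2.

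Il1r2 encodes the decoy receptor that binds interleukin-1 without signalling. Il1r2 was at 0.181, 0.0994, 0 and 0.130 FPKM in PBS. It was at 0.0309, 0.454, 0.193 and 0.0803 FPKM in LPS, and at 0.0614, 0.191, 0.544 and 0.625 FPKM in LPS+DMA. LPS female 2, where S100a8, Ngp and Ltf had no read, was the highest LPS library for Il1r2, and the arms overlapped. The log2 change was 0.10 for LPS against PBS, 0.18 for LPS+DMA against LPS and 0.28 for LPS+DMA against PBS (limma adjusted p = 0.872, 0.516 and 0.540). Il1r2 overlaps the antisense gene Gm16894 over 9624 bases, and since the labels do not say whether the preparation was stranded, its reads cannot be assigned with certainty. Gm37347 overlaps it on the same strand. No other gene of the table overlapped any of the other 9.

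**Figure D4:**
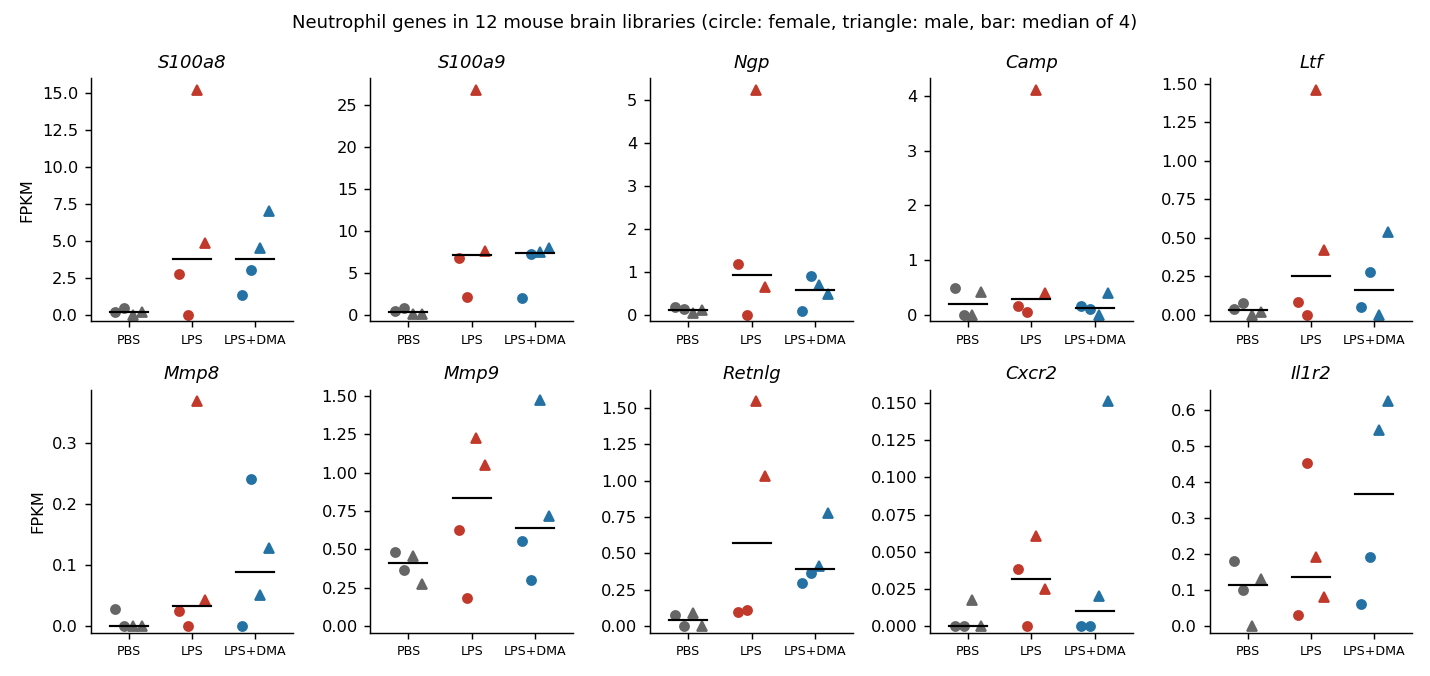
FPKM of each of the 10 genes by arm, 1 panel a gene with its own axis, circles for females, triangles for males and a bar at the median of 4. LPS male 1 is the highest red triangle for S100a8, S100a9, Ngp, Camp, Ltf, Mmp8 and Retnlg, and the LPS+DMA points of S100a8, S100a9 and Retnlg all lie above the PBS points.

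Within each arm the order of the genes by mean FPKM was not the same. In LPS it ran S100a9 (10.8), S100a8 (5.70), Ngp (1.77) and Camp (1.18), and in LPS+DMA it ran S100a9 (6.18), S100a8 (3.95), Mmp9 (0.761) and Ngp (0.540). Neighbours in these orders lay within the larger SD of the pair, except S100a8 and Mmp9 in LPS+DMA. Among all 56748 genes ranked by mean FPKM, S100a9 moved from position 17852 (PBS) to 4195 (LPS) and 6874 (LPS+DMA), and S100a8 from 20435 to 7033 and 8784. Mmp9 stood at 17631, 14936 and 14891.

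Mean S100a9 was 17.2 FPKM in the 2 LPS males and 4.41 in the 2 LPS females, and mean S100a8 was 10.01 and 1.38. In PBS the order was the other way, with S100a9 at 0.110 in males and 0.636 in females. The male minus female difference of the LPS against PBS change was 2.21 for S100a9, 2.61 for S100a8 and 1.04 for Retnlg on the log2 scale, each with a limma adjusted p of 1. No gene was called for this difference in limma (491 at an unadjusted p under 0.05), and it was not run in voom. With 2 animals of each sex in an arm, 1 of them LPS female 2, the difference was not detectable here.

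Other neutrophil genes were read from lists. Over all lists, 31 genes were called in LPS+DMA against LPS and 1 in LPS against PBS. As background to the lists below, 3.88% of all tested genes were called lower and 5.79% higher in LPS+DMA against LPS. That background depended on scaling, since after rescaling to 1 total more genes were called lower than higher. Of the 31 list genes called in that comparison, 1 (Lyz2) was called whichever single library was left out. Without the libraries high in cerebellar markers LPS female 2 is the sole LPS library, so that fit cannot test these calls, and only its log2 changes are given. Of 8 azurophil granule and precursor genes, 7 stayed under 0.5 FPKM in every library, Mpo (myeloperoxidase) among them, with a highest value of 0.245 in LPS male 1. Elane (neutrophil elastase) had reads in 3 libraries, 1 in each arm. Prtn3 (proteinase 3) was the azurophil gene tested, with means of 0.499 ± 0.520, 0.378 ± 0.0573 and 0.580 ± 0.271 FPKM in PBS, LPS and LPS+DMA (SD, n = 4). None was called in any comparison. Ly6g, the surface protein used to define mouse neutrophils, had reads in LPS male 1 (0.446 FPKM), LPS+DMA female 2 (0.0772) and PBS male 1 (0.0565) and was listed at 0 in the other 9. Cxcr1 and Clec4e were at 0 in every library.

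Of 18 other granule and secreted genes, 11 were tested. Lyz2, the lysozyme of macrophages, microglia and neutrophils, was called higher in LPS than in PBS and lower in LPS+DMA than in LPS. Over 4 animals each, PBS stood at 8.51 ± 1.60 FPKM (SD), LPS at 35.0 ± 2.896 and LPS+DMA at 6.73 ± 1.99. Its log2 change was 1.93 for LPS against PBS (limma adjusted p = 0.00673) and -2.25 for LPS+DMA against LPS (limma adjusted p = 0.00103), and no LPS library overlapped either other arm. The first of these calls was lost without PBS female 2, LPS female 1 or LPS male 1 in turn (log2 change of 1.82 to 2.03 over the 12 libraries left out, limma adjusted p up to 0.0603). Without the cerebellar libraries, which leaves LPS female 2 as the sole LPS library, Lyz2 changed by 1.65 and -2.09. Lyz2 and Hbb-bs have near-identical copies (Lyz1 and Hbb-bt), so their reads are uncertain at the level of 1 gene. Olfm4 (olfactomedin 4, a secondary granule protein) was called lower in LPS+DMA than in LPS, by -0.50 (limma adjusted p = 0.0349), a call that held in 3 of 12 fits with 1 library left out. Lcn2, the iron-scavenging lipocalin of secondary granules that astrocytes and endothelium also make, was at 0.0768 ± 0.0486, 1.13 ± 0.509 and 2.67 ± 2.62 FPKM and was not called. Its mean was thus highest in LPS+DMA, where Lyz2 was lowest, but the difference between the 2 genes was not tested.

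Of 16 neutrophil surface and identity genes, 6 were tested and 4 were called lower in LPS+DMA than in LPS, with none called in the other comparisons. They were Csf3r (receptor of granulocyte colony-stimulating factor) at -1.01, Fcgr3 at -0.75, Itgam (CD11b) at -0.64 and Fcgr4 at -0.58 on the log2 scale (limma adjusted p = 0.0278, 0.0214, 0.0259 and 0.0336). Csf3r, Fcgr3 and Itgam lost the call without LPS female 1, LPS male 1 or LPS male 2, and Fcgr4 was called in 4 of 12 fits with 1 library left out. Without the cerebellar libraries the 4 changes were -0.84, -0.92, -0.74 and -0.23. These 4 genes are shared with microglia and monocytes. Of 7 microglia markers 3 were also called lower in that comparison, and the summed microglia list was at 77.4 to 96.8 FPKM in PBS, 111 to 148 in LPS and 49.0 to 89.2 in LPS+DMA. Whether microglia account for the 4 calls was not tested.

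Genes that attract neutrophils or act around calprotectin were mostly low. Of 11 attractants and growth factors 3 were tested (Cxcl12, Cxcr4 and Ppbp) and none was called. Cxcl1 reached at most 0.260 FPKM, in LPS+DMA male 1, and Cxcl2 at most 0.0886. Of 8 genes of the interleukin-1 system 5 were tested and none was called. Il1r1, the signalling receptor, was at 0.740 ± 0.0580, 1.504 ± 0.162 and 1.60 ± 0.686 FPKM in PBS, LPS and LPS+DMA (SD, n = 4). Its log2 change was 0.52 for LPS against PBS (SE 0.16, limma adjusted p = 0.311).

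Among 12 calprotectin receptors and S100 relatives, 10 were tested. S100b (-1.78), S100a13 (-0.76) and S100a1 (-0.68), brain-expressed relatives, were called lower in LPS+DMA than in LPS (limma adjusted p = 0.0197, 0.0182 and 0.0279), and none was called higher. These 3 calls were lost without LPS female 1, LPS male 1 or LPS male 2. Without the cerebellar libraries S100b changed by -0.74, S100a13 by -0.67 and S100a1 by -0.58. S100b was at 258 to 320 FPKM in the 3 LPS libraries low in forebrain markers and at 110 in LPS female 2, against 85.4 to 174 in PBS and 55.5 to 74.5 in LPS+DMA. Tlr4 was at 0.321 ± 0.170, 0.493 ± 0.107 and 0.309 ± 0.0702 FPKM and was not called. Bsg, which encodes the calprotectin receptor CD147, was at 196 ± 14.1, 263 ± 10.3 and 222 ± 39.0 FPKM and was not called. Of 11 metalloproteinases and inhibitors 9 were tested and none was called. Of 9 adhesion genes for leukocyte entry 6 were tested, and Itgb2 (CD18) at -0.55 and Icam2 at -0.59 were called lower in LPS+DMA than in LPS (limma adjusted p = 0.0326 and 0.044). With 1 library left out Itgb2 was called in 6 of 12 fits and Icam2 in 3 of 12.

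Markers of blood and of tissue at the brain border followed the neutrophil genes in some libraries and not in others. Hbb-bs, an adult beta globin of red cells, was at 40.3 to 63.7 FPKM in PBS, 117 to 549 in LPS and 15.5 to 146 in LPS+DMA, with its highest value in LPS male 1, the library highest in S100a9. The summed list of 13 red cell genes was at 113 to 176, 305 to 968 and 91.1 to 362 FPKM, with 7 genes tested and none called. LPS+DMA male 1 had 15.5 FPKM of Hbb-bs, below every PBS library, and 7.48 FPKM of S100a9. The 8 choroid plexus genes summed to 4.34 to 338 FPKM in PBS, 188 to 1809 in LPS and 4.79 to 429 in LPS+DMA, with 5 called lower in LPS+DMA than in LPS. LPS+DMA male 1 and male 2 had choroid plexus sums of 4.79 and 5.37 FPKM, and S100a9 of 7.48 and 7.95 FPKM. The part of blood, choroid plexus and brain region in the higher values of LPS male 1 was not tested.

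**Figure D5:**
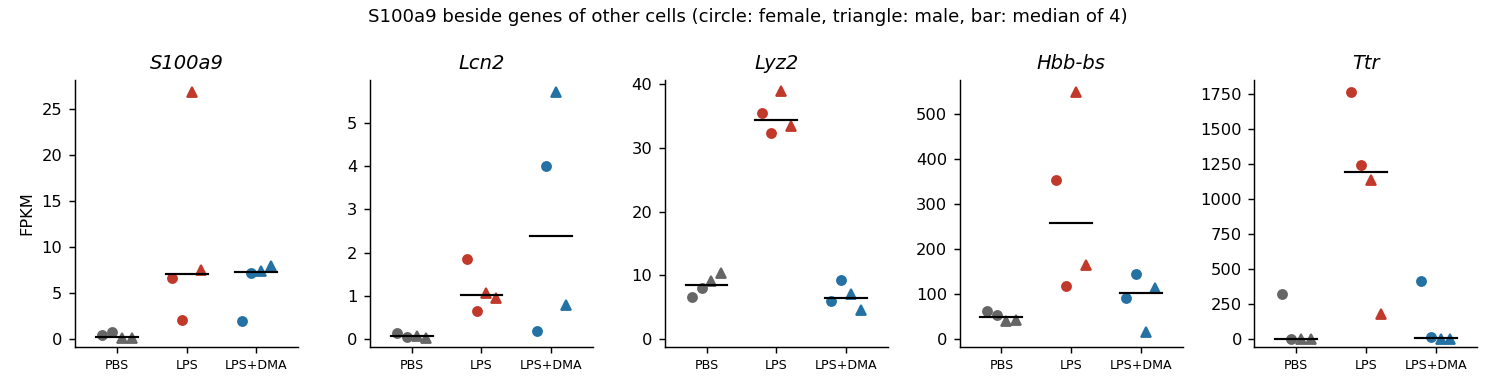
FPKM of S100a9, Lcn2, Lyz2, Hbb-bs and Ttr in 12 libraries by arm, each panel with its own axis, circles for females, triangles for males and a bar at the median of 4. Lyz2 is high in LPS alone (35.0 against 8.51 and 6.73 FPKM in mean), whereas S100a9 and Lcn2 are above PBS in mean in both LPS arms.

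Markers of other blood and border cells were lower. The 7 monocyte genes summed to 2.50 to 4.37 FPKM in PBS, 3.33 to 6.66 in LPS and 2.56 to 4.19 in LPS+DMA. The 10 B cell and marrow lymphoid genes summed to 8.09 to 12.1, 10.6 to 18.3 and 3.48 to 16.8 FPKM, most of it from Ighm (10.4 FPKM in mean). The 7 meningeal genes summed to 5.76 to 17.9, 10.8 to 21.9 and 8.57 to 12.1 FPKM. The 7 T and NK cell genes summed to 0.453 to 2.204, 2.49 to 3.61 and 1.01 to 6.02 FPKM. Most of it came from Cd4 and Trac (1.19 and 1.07 FPKM in mean). The highest sum, in LPS+DMA female 2, held 5.61 FPKM of Cd4. Nkg7 and Gzma had reads in every LPS library and in no LPS+DMA library. Both were below the expression filter, with 30 and 62 reads over all 12 libraries. Of the 2 tested genes of this list, Cd4 was higher in mean in LPS+DMA than in LPS (2.66 against 0.703 FPKM). Trac was lower (0.460 against 1.59 FPKM). None of the genes in these 4 lists was called. Of 7 bone genes, Dmp1 was called lower in LPS+DMA than in LPS, by -0.98 (limma adjusted p = 0.0383), in 2 of 12 fits with 1 library left out. LPS male 1 was the highest of the 12 libraries for the monocyte, B cell and bone lists as well as for S100a9, and this coincidence was not tested. Snap25, a synaptic protein that marks neurons, was at 246 to 427 FPKM in all 12 libraries, and Rbfox3, a nuclear marker of neurons, at 16.6 to 40.4 FPKM. Of the 8 general brain markers, 3 were called higher and 3 lower in LPS+DMA than in LPS, with Rbfox3 at 0.51 and Syt1, a synaptic vesicle protein, at 1.44 (limma adjusted p = 0.0367 and 0.0213). Rbfox3 and Slc1a2, both among the 3 called higher, were not called after rescaling to 1 total (limma adjusted p = 0.115 and 0.0726).

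Over the 12 libraries, the genes most like S100a8 among 13693 protein-coding genes were S100a9 (Pearson's r = 0.946 of log2(FPKM + 1)), Eme2 (0.912), Retnlg (0.895), Tns1 (0.894), Chil3 (0.893) and Gla (0.881). Itprid2 (0.840), Gdi2 (0.832), Ngp (0.831), Pkm (0.826) and Pafah1b2 (0.822) followed. Ltf came at position 14 (0.820), counting S100a8 itself as the first. Chil3 encodes a chitinase-like protein of neutrophils and macrophages. Tns1 was at 7.01 FPKM in LPS male 1 and 3.46 to 5.52 in the other 11. Il1r2 was far down this order (r = 0.295). The 5 genes most like Mmp9 were Nek9 (0.923), Ndufv1 (0.913), Mapk8ip2 (0.908), Bcl2l12 (0.903) and Rhot2 (0.885), and S100a8 came at position 99 (0.776). These are descriptions over libraries that share arm, region and depth.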

How the data were processed

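Polyadenylated RNA from 12 brains was sequenced. The authors deposited 1 table of FPKM per gene with gene lengths and coordinates on GRCm39. HISAT2 2.2.1 and featureCounts 2.0.6 are among the tools listed, per the submitters' processing notes, without their role or order. Both a strand-specific and a non-specific preparation are described per the labels' protocols. Multiplied by gene length, 100% of values of up to 1000 reads fell on whole steps of their library (tolerance 0.1 reads), which gave read numbers. Of read numbers from 1 to 20, 69.7% to 73.8% per library were even. The deposited FPKM, with 1 added, were put on a log2 scale and fitted with limma 3.58.1 in R 4.3.3 (trend and robust options) over 12 libraries, with arm and sex as terms. Genes needed 0.5 FPKM in at least 2 libraries, and p-values were adjusted by Benjamini-Hochberg over all 19571 genes kept. The fit was tested on simulated data. Alternatives changed the pseudocount, filter, covariates, scaling, test (voom on read numbers) and libraries. Nothing beyond the animal labels says that samples are independent, so p-values measure the spread between these animals. All 66 pairs of libraries differed beyond sampling noise (chi-square per degree of freedom of at least 27.3). The deviations of same-numbered animals of 1 sex correlated at r over 0.1 in 6 of 12 pairs and not in the others, and the labels state no pairing, so numbers were not used as a block. The 10 genes, the 19 lists of other genes and the tests were chosen with earlier results of these data known. Genes named from a list come from those called, at most 6, and the 3 highest in mean FPKM. Ly6g, Cxcr1, Clec4e, Cxcl1, Cxcl2, Il1r1, Tlr4 and Nkg7 were named after their values were seen. Genes like S100a8 and Mmp9 were the 8 and 5 highest in Pearson's r among protein-coding genes that are not among the 10.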

Additional observations from a re-analysis of the deposited data

Results flagged for a closer look

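In 30 groups of 4 libraries (10 genes by 3 arms), 6 held a library far from its other 3 by Dixon's criterion, which chance gives in about 1 of 20 groups of normally distributed values. That rate does not hold for groups with 3 libraries at 0, as Mmp8 and Cxcr2 in PBS, so the 6 are not set against it. S100a9 in LPS+DMA female 1 was low, at 2.02 FPKM against 7.25 to 7.95 in the other 3 libraries of that arm. LPS male 1 was high for Camp, at 4.12 FPKM, and for Mmp8, at 0.368 FPKM. LPS+DMA male 2 was high for Cxcr2, at 0.151 FPKM (12 reads). PBS female 1 was the PBS library with reads of Mmp8, at 0.0285 FPKM (3 reads), and PBS male 1 the one with reads of Cxcr2, at 0.0175 FPKM (2 reads).

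For Retnlg the change from LPS to LPS+DMA had opposite signs in the sexes, higher in both LPS+DMA females (0.296 and 0.368 FPKM) than in both LPS females (0.0995 and 0.108 FPKM) and lower in both LPS+DMA males (0.412 and 0.778 FPKM) than in both LPS males (1.55 and 1.03 FPKM). The female values rested on 6 reads in each LPS+DMA library and 2 in each LPS library. Both LPS female values were below the FPKM of 3 reads (0.149 and 0.162). The male minus female difference of the log2 change was -0.79 (limma adjusted p = 0.853), so it did not pass across all genes.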

How the results depend on the processing

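Of 510 comparisons of a gene's log2 change with its value under an alternative, 482 kept direction and side of the threshold, 2 became called and 26 changed sign. In LPS against PBS the number of genes called was 2, and 1 with a pseudocount of 0.1, without a filter, with voom or with the replicate block, 4 with only the 2 arms or without the cerebellar libraries, 10 with voom and no filter (added after seeing the data), and 0 to 672 with 1 library left out. The highest count, and the 2 genes of the 10 called (range 0 to 2), came without LPS female 2. In LPS+DMA against LPS 1892 were called, 83 without a filter, 5 with only the 2 arms, 5 without the cerebellar libraries, 2874 after rescaling to 1 total (589 higher and 2285 lower, against 1133 and 759), 2040 with the replicate block, and 7 to 3465 with 1 library left out. Rescaling moved the median of all genes by -0.12 in this comparison. In LPS+DMA against PBS 2 were called, 1 with the replicate block, 0 without a filter, without the sex term, with only the 2 arms, with voom (with or without a filter) or without the cerebellar libraries, and 0 to 6 with 1 library left out. The sex difference in LPS against PBS gave 2 genes without a filter. The replicate block, for which the numbers carry no stated pairing, changed no call of the 10 genes.

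Leaving out PBS female 1, LPS female 1, LPS male 1 and LPS male 2, which carry a cerebellar signal (Gabra6 of at least 10 FPKM), leaves 1 LPS library, assumed to vary like the others, the one lowest in S100a9. LPS against PBS was then -0.094 for Ngp and -0.031 for Ltf, with S100a9 at 1.36 and S100a8 at 0.065, and LPS+DMA against LPS was 0.997 for S100a9, 0.57 for Ngp, 0.25 for Ltf, 0.37 for Mmp9, 0.30 for Retnlg and -0.26 for Il1r2. With 1 library left out, LPS against PBS ranged from -0.032 to 0.16 for Il1r2, and LPS+DMA against LPS from -0.55 to 0.57 for S100a8, -0.84 to 0.11 for S100a9, -0.35 to 0.031 for Ltf, -0.14 to 0.074 for Mmp9 and -0.24 to 0.049 for Retnlg. LPS+DMA against LPS was -0.075 for S100a8 after rescaling, 0.029 for Mmp9 with a pseudocount of 0.1, 0.028 with voom and 0.029 with voom without a filter, and 0.026 for Retnlg with a pseudocount of 0.1. The sex difference of Il1r2 in LPS against PBS was 0.41 with a pseudocount of 0.1. Rescaling also changed how many genes lay wholly above the other arm, to 1112 for LPS over PBS, 281 for LPS+DMA over LPS and 204 for LPS+DMA over PBS. Where the setting does not itself remove libraries or genes, the cause was not tested. Depth limits all 10 genes.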
